A study of Mus musculus with 14 samples.

Results

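Chromatin accessibility was examined at 7 genes that encode TNF receptor superfamily members of Treg cells, namely Tnfrsf9, Tnfrsf1b, Tnfrsf8, Tnfrsf25, Tnfrsf14, Cd27 and Fas. The members were the windows of the deposited count table whose centre had one of these genes as the nearest protein-coding start site within 100 kb in GRCm38, which gave 207 of 240778 windows, or 0.086%. Each window ran 201 bp from start to end around a peak summit. The assay was ATAC-seq, which reads open chromatin from the places where a transposase inserts adapters, on Treg cells of spleen and lymph nodes. The Foxp3-AID allele, carried by every mouse, makes a Foxp3 protein that bears an auxin-inducible degron, together with ZsGreen and Cre, and ROSA26-TIR1(F74G) encodes a plant receptor through which the ligand 5-ph-IAA marks the fusion protein for degradation. TIR1 depends on Cre expressed from Foxp3, so it is made in cells that have expressed Foxp3. For this assay the study describes mice heterozygous for the Foxp3-AID allele, which the genotype labels do not state. In heterozygous females, by the study, Treg cells that express the wild-type Foxp3 allele are not affected by 5-ph-IAA. Loss of the protein cannot be checked from accessibility. By the labels all mice received 5-ph-IAA, for 3 days in 4 Foxp3-AID ROSA26-TIR1(F74G) and 4 Foxp3-AID ROSA26-WT mice and for 7 days in 3 mice of each genotype. They are called TIR1 and WT mice here, and the question was whether accessibility at the receptor genes differed between them. The study describes resting and activated ZsGreen-expressing cells sorted apart on day 7, whereas the labels give Treg cells on both days with neither age nor activation state. Which state a library holds is therefore not known here, so no value was computed for resting and activated cells apart, and a change in the share of either cannot be told apart from a change within cells.

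TNF receptor superfamily members are surface proteins that bind trimeric ligands of the TNF family. Most of them recruit TRAF adaptors and activate NF-kB, which supports survival and proliferation of T cells. Receptors with a cytoplasmic death domain, Fas among them, can instead assemble a caspase-activating complex. Treg cells carry several of these receptors at higher levels than other CD4+ T cells, and TNFR2, encoded by Tnfrsf1b, is widely used as a marker of activated Treg cells.

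Total counts in windows ranged from 5653289 to 20184487 per library, and the 207 windows held 0.0849% to 0.0963% of them. Values are counts scaled to the TMM-normalized library total (CPM). Windows lay within 2 kb of the start site for 5 of 6 Treg and T cell markers (Il2ra, Ctla4, Ikzf2, Cd4 and Cd3e), with a summed level of 180 to 234 CPM per library. Foxp3 had 3 windows within 100 kb but none within 2 kb of its annotated start. Windows were also found for 3 of 5 myeloid markers, 31.9 to 41.3 CPM summed. Of these, Cd14 had a mean of 19, Spi1 15.6 and Itgam 1.12 CPM, and Lyz2 and Csf1r were at 0. Of the markers of CD8 T and NK cells 3 of 5 had windows, 48.4 to 62.3 CPM summed, with Cd8b1 at 25.1, Eomes at 27.3 and Cd8a at 1.33 CPM, and Ncr1 and Klrb1c at 0. Cd4 had 16.6 CPM and the median gene 6.43 CPM. Within 100 kb Klrb1c had 18 windows, Lyz2 3 and Ncr1 1. The part of such cells in the results below was not tested. No pair of replicates held identical counts, and chi-square per degree of freedom was 1.85 to 2.96 over the 18 pairs within groups.

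The number of windows differed widely between the receptors. Tnfrsf8 had 60, Tnfrsf25 40, Tnfrsf1b 35, Tnfrsf9 25, Fas 19, Tnfrsf14 16 and Cd27 12, against a median of 8 over the 15873 genes with a window. Of the 207 windows, 101 overlapped another window, so that reads were shared, and merging them left 148 separate regions. By position, 94 windows were centred inside the gene to which they were assigned, 42 inside another protein-coding gene and 71 outside protein-coding genes. Exons and introns were not resolved here. The windows inside another gene were those assigned to Tnfrsf25, a short gene of 4592 bp with 22 windows inside Espn and 11 inside Plekhg5, and those assigned to Tnfrsf1b, with 9 inside the neighbouring Tnfrsf8. Assignment by the nearest start site does not show which gene a window acts on, and this bears most on Tnfrsf25, with 6 windows inside the gene itself. Within 1 kb of a start site lay 22 windows, or 10.6%, against 23.4% of all assigned windows. The median level of the 207 windows was 2.76 CPM, and that of all windows 1.8 CPM.

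**Figure D1:**
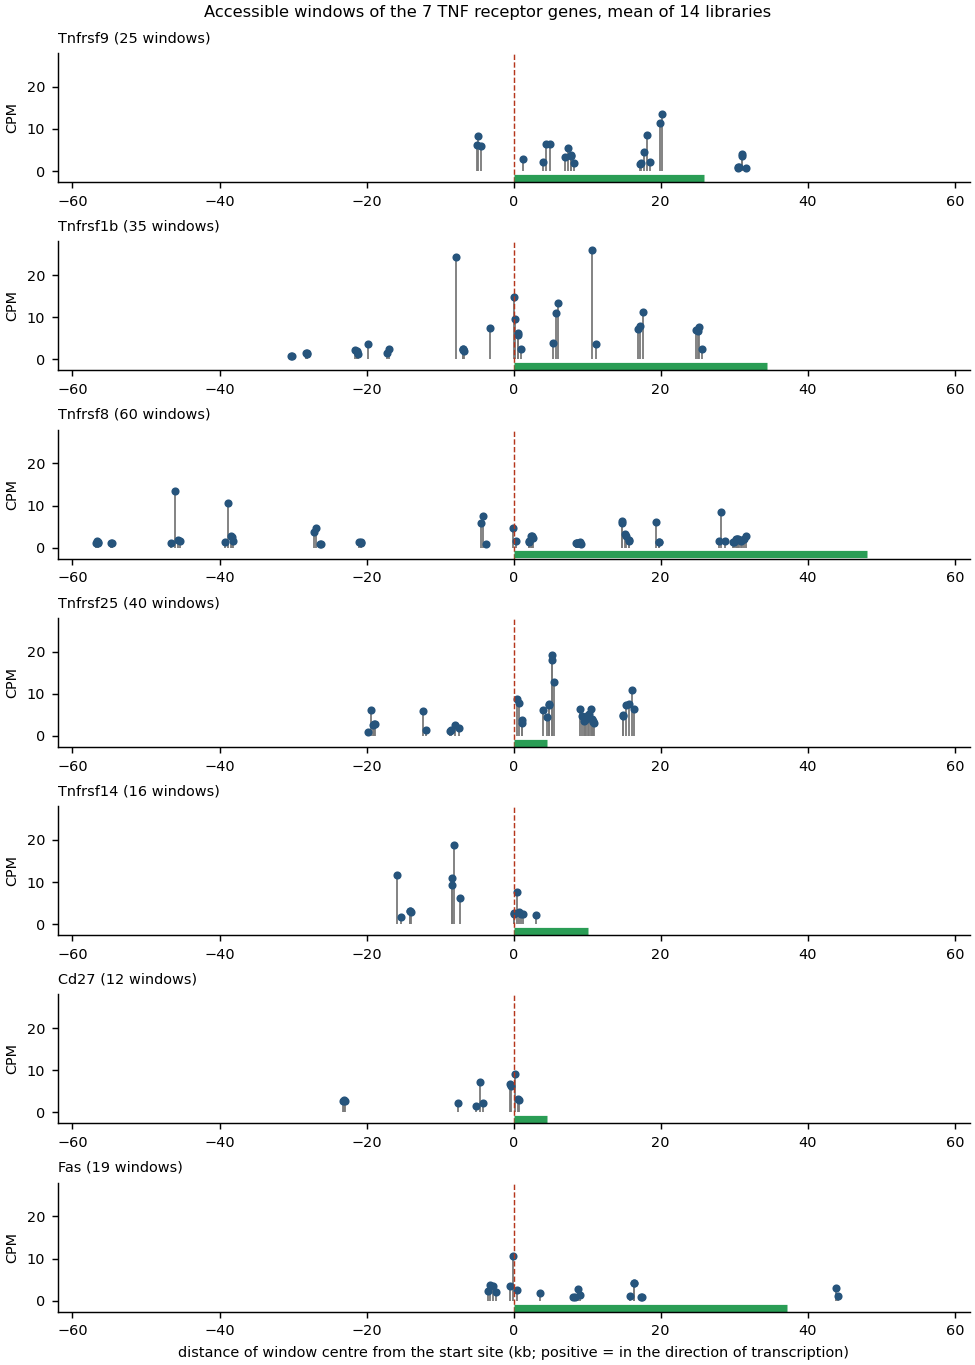
Mean accessibility over 14 libraries (vertical axis, CPM) of each window against its distance from the start site of the assigned gene (horizontal axis, kb), 1 panel for each receptor gene. Points are windows, the green bar is the gene and the dashed line the start site. The highest point lies at the start site in Cd27 and Fas and away from it in the other 5 genes.

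The most accessible window of the receptors lay inside Tnfrsf1b, at chr4:145236168-145236369, 10.6 kb downstream of where transcription starts. Its level was 26.0 ± 2.28 CPM (SD, n = 14), which was at or above 97.6% of all windows. A second window of Tnfrsf1b, 7.78 kb upstream at chr4:145254550-145254751 and outside genes, had 24.3 ± 2.38 CPM. Both stood above the window at the start site, with 14.9 ± 1.67 CPM. The strongest window of Tnfrsf25 (chr4:152120653-152120854, 19.2 ± 1.75 CPM) lay 5.23 kb downstream of the start, beyond the end of the gene and inside Espn. That of Tnfrsf14 (chr4:154936588-154936789, 18.9 ± 2.28 CPM) lay 8.07 kb upstream, outside genes. Tnfrsf9 had its strongest window at 20.2 kb inside the gene (chr4:150940280-150940481, 13.6 ± 2.24 CPM) and Tnfrsf8 at 46.1 kb upstream (chr4:145361164-145361365, 13.5 ± 1.82 CPM). Only in Fas (chr19:34290482-34290683, 10.6 ± 2.22 CPM) and Cd27 (chr6:125236911-125237112, 9.04 ± 0.982 CPM) was the strongest window also the one nearest the start, 64 bp upstream and 124 bp downstream.

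In the order of these strongest windows, Tnfrsf1b was above Tnfrsf25 in 14 of 14 libraries and Tnfrsf14 above Tnfrsf9 in 14 of 14. Tnfrsf25 and Tnfrsf14, which differed by 0.229 ± 2.57 CPM (SD of the difference), were not separated beyond their spread, with Tnfrsf25 higher in 9 of 14 libraries. Nor were Tnfrsf9 and Tnfrsf8 (0.137 ± 2.78 CPM, Tnfrsf9 higher in 7 of 14). Tnfrsf8 was above Fas in 12 and Fas above Cd27 in 11 of 14 libraries, the latter by 1.54 ± 2.31 CPM. The ranges of all neighbours in this order overlapped.

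For the 5 receptors with a distal maximum, the distal window was above the start-site window in 14 of 14 libraries each. The distal window was chosen for the highest mean over these same libraries, so a higher mean follows from the choice. The ratio of the former to the latter had a median of 1.78 for Tnfrsf1b (range 1.34 to 2.29), 2.21 for Tnfrsf25 (1.63 to 3.07), 2.89 for Tnfrsf8 (2.04 to 4.03), 4.87 for Tnfrsf9 (3.44 to 10.7) and 7.39 for Tnfrsf14 (4.86 to 17.6). These ratios depend on the start that the annotation gives. For Tnfrsf14 a window 474 bp downstream, at the start that the promoter sequences of RefSeq use, had 7.62 ± 0.837 CPM, whereas the nearest window had 2.71 ± 0.648. For Tnfrsf9 no window lay within 1 kb of the first start, and the nearest, at 1.23 kb, had 2.76 ± 0.468 CPM. Over all genes the strongest window lay more than 1 kb from the start in 42.7%, and in 45.7% of the 5798 genes with at least 12 windows, beside 5 of these 7.

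**Figure D2:**
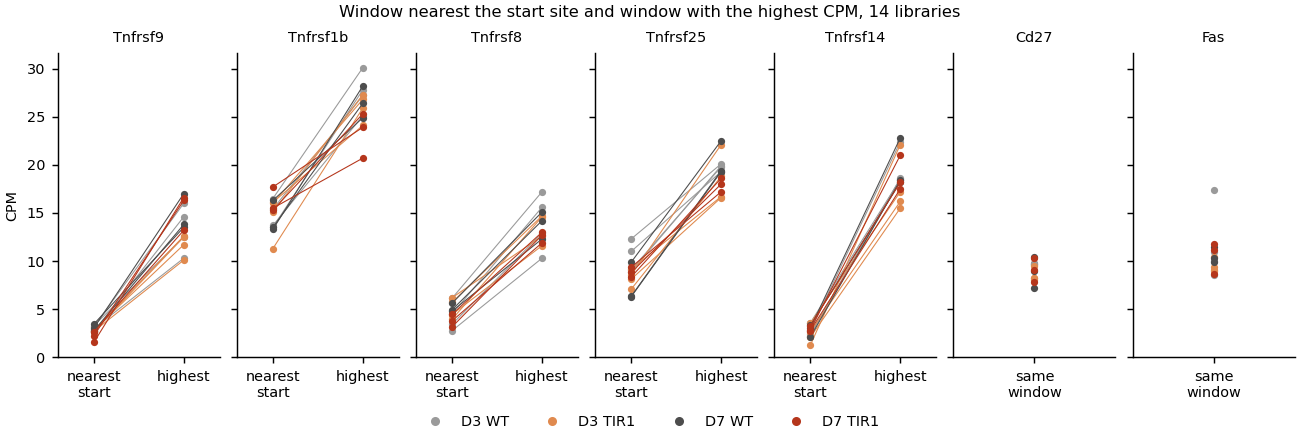
Accessibility (vertical axis, CPM) of the window nearest the start site and of the window with the highest mean, joined for each of the 14 libraries and coloured by group, 1 panel for each gene. All lines climb in Tnfrsf9, Tnfrsf1b, Tnfrsf8, Tnfrsf25 and Tnfrsf14, and in Cd27 and Fas the window is the same.

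Promoter sequences in RefSeq coordinates of GRCm38.p6 were found for all 7 genes, with a second annotated start for Tnfrsf9 and Tnfrsf25, 9 in all. They run from 250 bases before to 50 bases after a start. For Tnfrsf14 and Tnfrsf25 the starts of these promoters lie inside the gene, downstream of the start from which window distances were measured, so the sequence at that outer start was not searched. Both strands were searched for short motifs of factors known in T cells, namely TGTTTAC (forkhead), GGG and TTTCC separated by any 2 bases (NF-kB), TGANTCA (AP-1), TTCNNNGAA (STAT), CCGGAAG (Ets) and TGTGGTT (Runx). All matches lay in the 250 bases before a start, and these bases are shown to place the matches beside the windows, for 4 of the 5 genes with a match (Tnfrsf25, with a single match at each start, is described only). For Tnfrsf9 the second start is shown. Capitals mark the matches.
Tnfrsf9 chr4:150927749-150927998 (+ strand): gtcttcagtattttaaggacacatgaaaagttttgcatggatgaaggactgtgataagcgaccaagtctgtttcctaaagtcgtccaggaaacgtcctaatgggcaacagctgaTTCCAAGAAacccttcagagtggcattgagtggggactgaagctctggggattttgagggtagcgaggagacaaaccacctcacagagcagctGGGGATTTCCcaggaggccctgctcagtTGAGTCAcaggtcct
Tnfrsf8 chr4:145315165-145315414 (- strand): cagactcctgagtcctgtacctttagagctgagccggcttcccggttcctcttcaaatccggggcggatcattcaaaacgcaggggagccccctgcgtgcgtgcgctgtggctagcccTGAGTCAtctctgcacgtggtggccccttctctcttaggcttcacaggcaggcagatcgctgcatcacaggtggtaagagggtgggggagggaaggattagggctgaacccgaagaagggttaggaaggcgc
Tnfrsf1b chr4:145246871-145247120 (- strand): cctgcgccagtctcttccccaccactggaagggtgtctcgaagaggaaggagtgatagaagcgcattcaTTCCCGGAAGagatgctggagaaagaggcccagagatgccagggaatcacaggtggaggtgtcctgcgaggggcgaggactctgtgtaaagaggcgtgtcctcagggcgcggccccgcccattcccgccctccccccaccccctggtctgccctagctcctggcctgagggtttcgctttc
Fas chr19:34290409-34290658 (+ strand): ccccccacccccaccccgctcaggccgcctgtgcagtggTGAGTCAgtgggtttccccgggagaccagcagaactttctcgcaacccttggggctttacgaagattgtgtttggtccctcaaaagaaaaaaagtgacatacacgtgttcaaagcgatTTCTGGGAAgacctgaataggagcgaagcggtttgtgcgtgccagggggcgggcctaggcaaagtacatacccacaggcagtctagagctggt

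The second start of Tnfrsf9 had the most matches, with STAT letters 136 bases, NF-kB letters 43 bases and AP-1 letters 15 bases before the start, all 3 inside windows, of which the higher had 3.72 CPM. The promoter at its first start overlapped no window. Tnfrsf8 held AP-1 letters 132 bases before the start, inside its window of 4.57 CPM. In Fas, STAT letters at 93 bases lay inside the start-site window and AP-1 letters at 211 bases outside it. In Tnfrsf1b a STAT match and an Ets match overlapped each other, 181 and 178 bases before the start, outside its window. Tnfrsf25 held NF-kB letters at its first start and STAT letters at its second, both outside windows. Forkhead and Runx letters were in none of the 9, and the promoters searched for Tnfrsf14 and Cd27 held none of the 6 motifs. Among all 32851 promoters of this length, the letters occurred in 1.63% for NF-kB, 7.81% for AP-1, 8.3% for STAT, 8.86% for Ets, 3.65% for forkhead and 5.27% for Runx, beside 2, 3, 4, 1, 0 and 0 of the 9. A match is a match of letters, and binding was not measured here.

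Between genotypes, none of the 207 windows was called at an adjusted p under 0.05 by edgeR's quasi-likelihood test on day 7, when 0.00463% of 237811 windows tested were called. At an unadjusted p under 0.05, 5 member windows were higher in TIR1 and 12 lower, beside 2.75% and 3.2% of all windows. DESeq2 called 0 member windows, beside 0 of all 237811, with 8 at an unadjusted p under 0.05 beside 6367 of all. On day 3, with 206 member windows tested, 0 were called beside 0% of all windows. At an unadjusted p under 0.05, 5 were higher and 8 lower, beside 3.93% and 3.62%. DESeq2 then called 0 of the 206, beside 0 of all 235515, with 4 at an unadjusted p under 0.05 beside 11762 of all. Over both days, 0 were called beside 0.0112%. At an unadjusted p under 0.05, 6 were higher and 11 lower, beside 3.16% and 3.57%. DESeq2 called 0 members beside 155 of all 240778 windows, with 14 at an unadjusted p under 0.05 beside 14153 of all. With edgeR the smallest adjusted p of a member window was 0.691 on day 7, 0.583 on day 3 and 0.599 with the days combined. The members had a median log2 fold change of -0.03 on day 7 (-0.01 for all windows), -0.06 on day 3 (0.01) and -0.04 with the days combined (0.00).

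**Figure D3:**
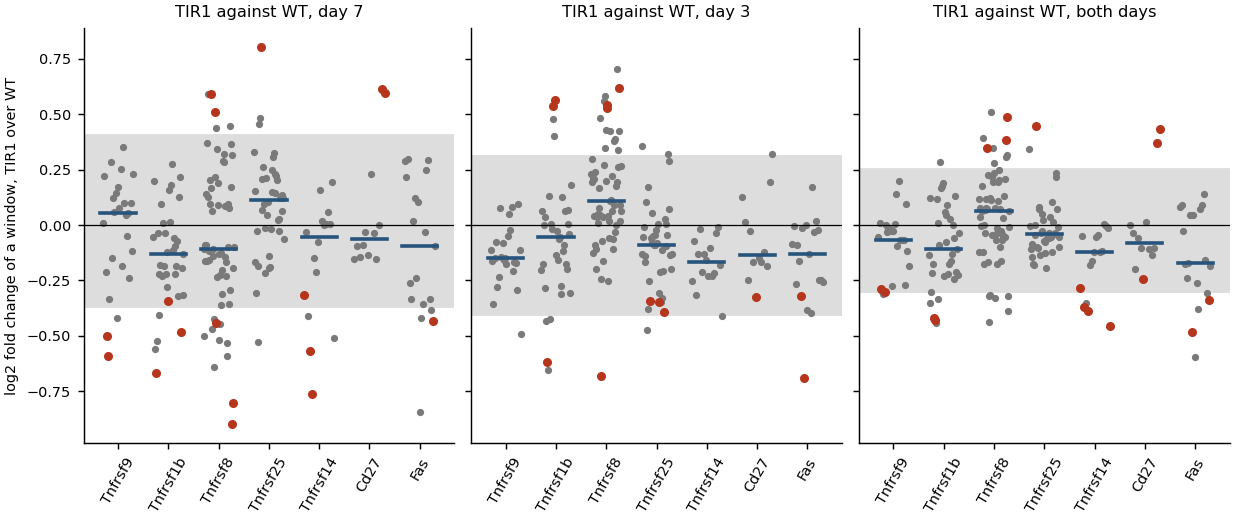
Log2 fold change, TIR1 over WT, of each window by receptor gene (vertical axis), in a panel each for day 7, day 3 and both days. Red points have an unadjusted p under 0.05, blue lines are the medians of a gene and the grey band holds 95% of all windows whose mean count reached 50. No point passed the adjusted threshold.

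When the windows of each gene were summed, 0 of the 7 genes was called on any day by edgeR or by DESeq2. At an unadjusted p under 0.05 there were 0 on day 7 and 1 each on day 3 and with the days combined, by either tool, beside 7.37%, 16.1% and 13.2% of all genes with edgeR, so that 1 of 7 was near the background. At an adjusted p under 0.05 edgeR called 0%, 0.107% and 0.0189% of all genes. DESeq2 called 14, 188 and 196 of all 15858, 15862 and 15873 genes, with 1027, 2498 and 2225 at an unadjusted p under 0.05. The ratio of the highest to the lowest of the 14 libraries was 1.12 for Tnfrsf25, 1.2 for Tnfrsf9, 1.24 for Tnfrsf1b, 1.26 for Cd27, 1.29 for Tnfrsf14, 1.35 for Tnfrsf8 and 1.49 for Fas. The coefficient of variation was 3.4% for Tnfrsf25 and 12.1% for Fas, and 9.8% in the median gene. Sums depend on the number of windows and are compared here only within a gene.

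**Figure D4:**
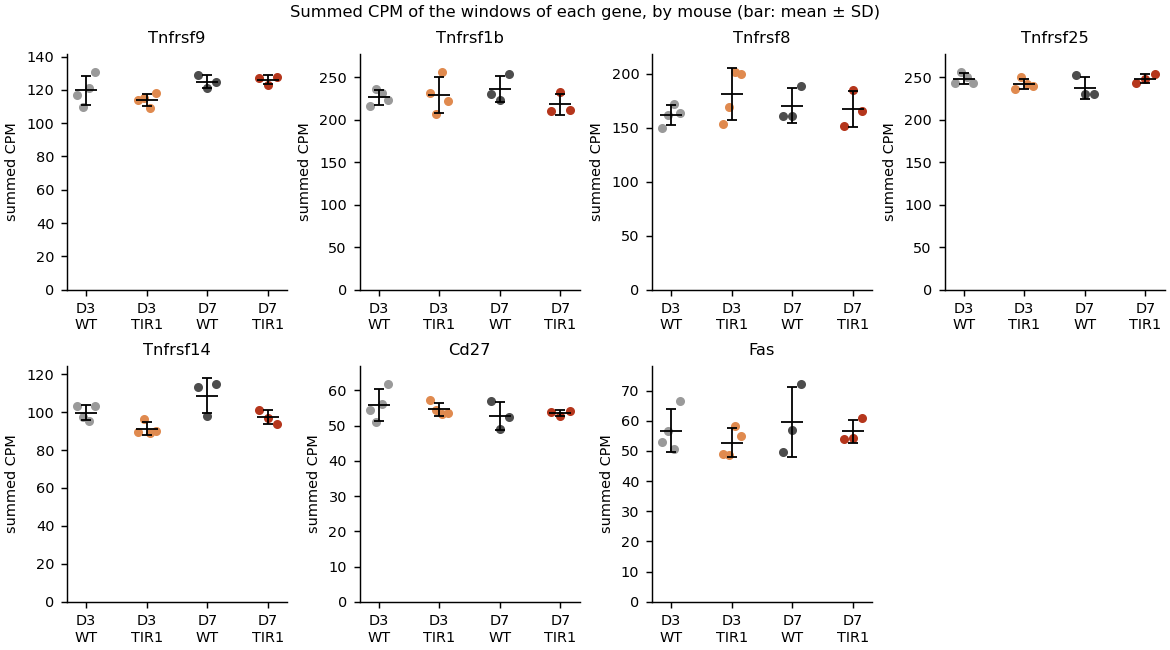
Summed CPM of the windows of each receptor gene (vertical axis, from 0) in every mouse, by day and genotype, with the mean and SD of each group. TIR1 and WT mice overlap in all 7 genes on both days.

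Among the costimulatory receptors, Tnfrsf9 encodes 4-1BB, an inducible receptor whose ligand is Tnfsf9. Its windows summed to 117, 110, 121 and 131 CPM in WT and 114, 115, 109 and 118 CPM in TIR1 mice on day 3. On day 7 they summed to 129, 121 and 125 CPM in WT and 127, 123 and 128 CPM in TIR1 mice. The groups overlapped on both days, with log2 fold changes of -0.07 ± 0.07 (SE) on day 3 and 0.01 ± 0.06 on day 7. Of its windows, 4 of 24 tested were higher in TIR1 on day 3 and 15 of 25 on day 7. On day 3, 7.98% of genes with at least 10 windows had as large a share of lower windows. As large a share of higher windows was found in 29.2% on day 7. The window with the smallest p over both days, 4.4 kb inside the gene at chr4:150924455-150924656, had 5.71, 7.81, 6.35 and 7.55 CPM in WT and 7.19, 5.79, 4.25 and 6.11 CPM in TIR1 mice on day 3. On day 7 it had 7.17, 8.2 and 5.55 CPM in WT and 5.45, 5.96 and 5.72 CPM in TIR1 mice. Values of the genotypes overlapped on both days, and the log2 fold change was -0.30 ± 0.12 (unadjusted p = 0.0154, adjusted p = 0.641, edgeR).

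Tnfrsf1b encodes TNFR2, the receptor for membrane-bound TNF. Its windows summed to 216, 236, 232 and 223 CPM in WT and 232, 207, 257 and 222 CPM in TIR1 mice on day 3, where the TIR1 mice held both the lowest and the highest value. On day 7 they summed to 231, 224 and 254 CPM in WT and 211, 233 and 212 CPM in TIR1 mice. A pair of the 3 TIR1 mice lay below all WT mice then, and the log2 fold change was -0.11 ± 0.06 (adjusted p = 0.703, edgeR), against 0.01 ± 0.06 on day 3. Without the third WT mouse, the shallowest day 7 library, the day 7 value was -0.06. By window, 9 of 35 were higher in TIR1 on day 7 and 13 of 35 on day 3. Of genes with at least 10 windows, 11.4% had as large a lower share on day 7 and 32.5% on day 3. The strongest window had 28.2, 24.9 and 26.4 CPM in WT and 20.7, 25.3 and 23.9 CPM in TIR1 mice on day 7, and 25.1, 27.8, 27.2 and 30.1 against 26.8, 24.1, 25.9 and 27.3 CPM on day 3. Over both days its log2 fold change was -0.13 ± 0.08 (adjusted p = 0.832). The start-site window went the other way on day 7, with 13.3, 16.3 and 13.5 CPM in WT and 15.5, 15.3 and 17.7 CPM in TIR1 mice. The groups overlapped in that window on day 7, with a log2 fold change of 0.16 ± 0.13 (unadjusted p = 0.244, adjusted p = 0.917, edgeR). The ratio of the strongest to the start-site window was then 1.45 ± 0.178 (SD, n = 3) in TIR1 and 1.87 ± 0.306 in WT mice, and 1.82 ± 0.339 and 1.87 ± 0.132 (n = 4) on day 3. Of the other receptors with a distal maximum, the day 7 ratio was also lower in TIR1 than in WT mice for Tnfrsf25 (2.04 ± 0.198 and 2.8 ± 0.455) and Tnfrsf14 (6.39 ± 0.92 and 7.26 ± 1.66), and higher for Tnfrsf9 (7.68 ± 2.85 and 4.85 ± 0.858) and Tnfrsf8 (3.36 ± 0.594 and 2.71 ± 0.162). These ratios were not tested.

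A second window of Tnfrsf1b, 24.7 kb inside the gene at chr4:145222041-145222242, was among the 3 member windows with the smallest p on day 7. It had 8.14, 6.86 and 10.3 CPM in WT and 4.97, 6.62 and 5.97 CPM in TIR1 mice, without overlap. The log2 fold change was -0.48 ± 0.17 (unadjusted p = 0.00699, adjusted p = 0.724). On day 3 the same window had 4.16 to 9.38 CPM in WT and 5.04 to 7.6 CPM in TIR1 mice, with a log2 fold change of 0.00 ± 0.18.

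Tnfrsf8 encodes CD30, a receptor of activated lymphocytes. Its windows summed to 150, 162, 172 and 164 CPM in WT and 153, 169, 202 and 200 CPM in TIR1 mice on day 3. A pair of the 4 TIR1 mice were above all WT mice, and the other pair were within the WT range. The log2 fold change was 0.16 ± 0.08 (unadjusted p = 0.0475, adjusted p = 0.304, edgeR), and 46 of 60 windows were higher in TIR1. Of 6854 genes with at least 10 windows, 12.7% had as large a share of higher windows on day 3. The higher pair were the TIR1 mice whose names in the library labels begin with E, where the mean was 201 CPM against 164 CPM in the 1 such WT mouse, a log2 ratio of 0.29. In mice whose names begin with AC the means were 161 CPM in 2 TIR1 and 162 CPM in 3 WT mice. On day 7 the sums were 161, 161 and 189 CPM in WT and 152, 185 and 165 CPM in TIR1 mice, which overlapped, with a log2 fold change of -0.02 ± 0.08 and 25 of 60 windows higher. The difference between the days was not called (interaction -0.18 ± 0.12, adjusted p = 0.617).

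In Tnfrsf8 the window with the smallest p on day 3, 2.45 kb inside the gene at chr4:145312610-145312811, had 2.34, 2.65, 2.12 and 1.65 CPM in WT and 3.24, 2.9, 3.06 and 3.46 CPM in TIR1 mice. The genotypes did not overlap, with a log2 fold change of 0.53 ± 0.22 (unadjusted p = 0.0221, adjusted p = 0.6). On day 7 they did, with 2.58, 2.27 and 3.9 CPM in WT and 1.98, 2.98 and 2.58 CPM in TIR1 mice. The start-site window had 5.62, 4.94 and 4.8 CPM in WT and 3.16, 4.47 and 3.79 CPM in TIR1 mice on day 7, where all 3 TIR1 mice were lower. Its log2 fold change was -0.44 ± 0.19 (unadjusted p = 0.0246, adjusted p = 0.81, edgeR), so it was not called. On day 3 it had 2.77 to 6.14 against 3.96 to 6.19 CPM, with a log2 fold change of 0.27 ± 0.20.

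Cd27 encodes the receptor for CD70, present on most resting T cells. Summed CPM came to 54.3, 51, 56.1 and 61.9 CPM in WT and 57.3, 54.3, 53.3 and 53.5 CPM in TIR1 mice on day 3. They summed to 56.9, 49 and 52.4 CPM in WT and 53.9, 52.6 and 54.2 CPM in TIR1 mice on day 7. All TIR1 mice lay within the WT range on both days, with log2 fold changes of -0.04 ± 0.08 and 0.02 ± 0.08. Of the Cd27 windows, 8 of 12 were lower in TIR1 on day 3 and 9 of 12 on day 7. As large a lower share was found in 28.5% of genes with at least 10 windows on day 3 and 11.3% on day 7. The start-site window had 9.7, 9.59, 9.77 and 9.68 CPM in WT and 8.27, 8.21, 9.47 and 8.04 CPM in TIR1 mice on day 3, all lower in TIR1. It was not called, as the smallest adjusted p of any Cd27 window on day 3 was 0.662 (edgeR). On day 7 it had 10.4, 9.01 and 7.2 against 7.81, 9.12 and 10.3 CPM, where the groups overlapped. A weaker window 658 bp downstream (chr6:125236377-125236578) had a log2 fold change of 0.44 ± 0.18 over both days (unadjusted p = 0.0168, adjusted p = 0.646), with 1.45 to 4.05 CPM in the 7 WT and 2.88 to 3.85 CPM in the 7 TIR1 mice.

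Tnfrsf14 encodes HVEM, which binds the TNF family ligand LIGHT (Tnfsf14) and, outside that family, Btla and Cd160. Its windows summed to 103, 97.2, 95.3 and 103 CPM in WT and 89.3, 96.5, 89.1 and 90 CPM in TIR1 mice on day 3. On day 7 they summed to 113, 98 and 115 CPM in WT and 101, 97 and 93.6 CPM in TIR1 mice. The TIR1 mice lay below all WT mice in 3 of 4 on day 3 and in 2 of 3 on day 7, so that the groups overlapped by 1 mouse on each day. The log2 fold change was -0.13 ± 0.07 on day 3, -0.16 ± 0.07 on day 7 and -0.14 ± 0.05 with the days combined. With an unadjusted p of 0.00771 and an adjusted p of 0.238 (edgeR; 0.0964 with DESeq2) over both days, it was not called. Of all 15873 genes, 10% had as low a fold change over both days. Mice named AC gave a log2 ratio of means of -0.08 on day 3 and -0.13 on day 7, and those named E -0.20 on day 3 with 1 WT mouse.

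By window, Tnfrsf14 was lower in TIR1 in 16 of 16 on day 3, 9 of 16 on day 7 and 15 of 16 with the days combined. Among genes with at least 10 windows, 1.46% had all windows lower on day 3 and 38.1% had as large a share on day 7. As large a share over both days, which include the day 3 mice, was found in 1.79%. Of these 16 windows, 9 overlapped another, and windows of a gene are not independent. The window with the smallest p over both days, 15.8 kb upstream and outside genes at chr4:154944335-154944536, had 12.8, 11.2, 9.49 and 14 CPM in WT and 11.7, 10.1, 8.42 and 10.2 CPM in TIR1 mice on day 3. On day 7 it had 13.2, 14.9 and 14.1 CPM in WT and 12, 9.36 and 12.4 CPM in TIR1 mice. The groups overlapped on day 3 and not on day 7, with a log2 fold change over both days of -0.28 ± 0.10 (unadjusted p = 0.0086, adjusted p = 0.599). The strongest window, 8.07 kb upstream, had 18.4, 18.5, 18.6 and 22.4 CPM in WT and 22.1, 17.2, 15.5 and 16.2 CPM in TIR1 mice on day 3, and 22.8, 18.2 and 18.4 against 17.5, 21 and 18.2 CPM on day 7, with overlap on both days.

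Another window of Tnfrsf14, 14 kb upstream at chr4:154942543-154942744, was among the 3 members with the smallest p on day 7, and 1 mouse stood far above the rest. It had 2.91, 2.79 and 8.85 CPM in WT and 2.51, 2.38 and 2.53 CPM in TIR1 mice, and the log2 fold change of -0.76 ± 0.27 (unadjusted p = 0.00822, adjusted p = 0.737) became -0.20 without the third WT mouse. That library had the lowest total count of the day 7 libraries, 6348754.

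Tnfrsf25 and Fas encode receptors with a death domain. Tnfrsf25 is DR3, the receptor for the cytokine TL1A (Tnfsf15), and agonists of it expand Treg cells. Summed CPM came to 244, 257, 251 and 243 CPM in WT and 237, 251, 242 and 240 CPM in TIR1 mice on day 3, and to 253, 230 and 231 against 244, 248 and 254 CPM on day 7. The groups overlapped, with log2 fold changes of -0.04 ± 0.05 and 0.06 ± 0.05. By window, 10 of 40 were higher in TIR1 on day 3 and 27 of 40 on day 7. On day 3, 16.5% of genes with at least 10 windows had as large a share of lower windows. As large a share of higher windows was found in 15.9% on day 7. The window with the smallest p of all members on day 7 lay 7.94 kb upstream inside Plekhg5, at chr4:152107483-152107684. It had 1.49, 2.97 and 0.75 CPM in WT and 2.94, 3.76 and 3.49 CPM in TIR1 mice, and the groups overlapped by 1 mouse. The log2 fold change was 0.80 ± 0.27 (unadjusted p = 0.00464, adjusted p = 0.691), and 1.45 without the second WT mouse. The lowest WT value was that of the third WT mouse, the shallowest day 7 library. On day 3 this window had 1.47 to 3.95 CPM in WT and 2.01 to 4.99 CPM in TIR1 mice. Its log2 fold change was then 0.17 ± 0.26 (unadjusted p = 0.514, adjusted p = 0.924, edgeR). Inside Espn, at chr4:152125885-152126086, a window had 5.54, 8.6, 7.65 and 7.44 CPM in WT and 6.11, 6.17, 4.77 and 5.47 CPM in TIR1 mice on day 3, with a log2 fold change of -0.39 ± 0.17 (unadjusted p = 0.0215, adjusted p = 0.599).

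Fas encodes the receptor through which Fas ligand induces apoptosis of activated T cells. Its windows summed to 52.9, 56.7, 50.5 and 66.6 CPM in WT and 49.1, 48.6, 58.4 and 55 CPM in TIR1 mice on day 3, and to 49.5, 56.9 and 72.3 against 54.1, 54.3 and 60.9 CPM on day 7. The highest value on each day was a WT mouse, and the groups overlapped, with log2 fold changes of -0.11 ± 0.09 and -0.05 ± 0.12. Without the WT mouse that was highest, the value was -0.02 on day 3 and 0.09 on day 7. Of the Fas windows, 16 of 19 were lower in TIR1 on day 3 and 11 of 19 on day 7. As large a lower share was found in 6.9% of genes with at least 10 windows on day 3 and 35.2% on day 7. The start-site window had 10.9, 8.6, 10 and 17.4 CPM in WT and 9.35, 9.01, 10.4 and 9.09 CPM in TIR1 mice on day 3. The fourth WT mouse stood above the rest there, and over both days the log2 fold change of -0.17 ± 0.12 was -0.02 without it. A window 3.58 kb inside the gene, at chr19:34294124-34294325, had the smallest p of the members on day 3. It had 1.9, 2.12, 1.71 and 2.66 CPM in WT and 1.62, 1.39, 0.745 and 1.61 CPM in TIR1 mice, without overlap, and a log2 fold change of -0.69 ± 0.28 (unadjusted p = 0.0175, adjusted p = 0.583).

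**Figure D5:**
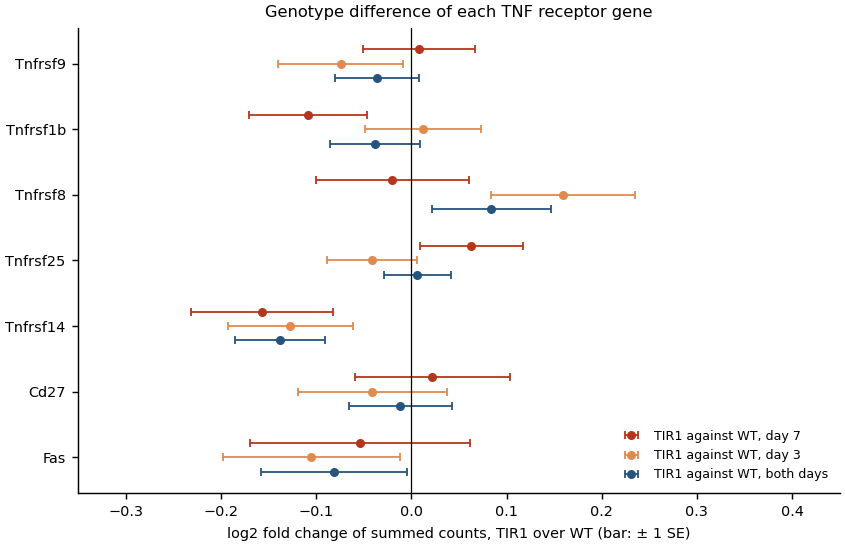
Log2 fold change, TIR1 over WT, of the summed counts of each receptor gene (horizontal axis, points) with 1 SE (bars), for day 7, day 3 and both days. Tnfrsf14 lies left of 0 by more than 1 SE in all 3 comparisons, and no gene passed the adjusted threshold.

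Over both days the strongest window of each of the 7 receptors had a log2 fold change below 0, from -0.17 for Fas to -0.07 for Tnfrsf9. This was also the common direction of windows of such a level, since 69.3% of the 23882 windows with at least 9.04 CPM were lower in TIR1, with a median of -0.05. With offsets fitted by loess to the level of each window, the 7 values ran from -0.13 for Fas to -0.02 for Tnfrsf9, and that of Tnfrsf1b went from -0.13 to -0.06. None of the 7 was called.

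No member was called between days. In WT mice 0 member windows were called between day 7 and day 3 with edgeR, beside 0.003% of all windows, with 14 at an unadjusted p under 0.05 beside 5.25%. DESeq2 gave 0 and 7, beside 0 and 6181 of all 232991 windows. In TIR1 mice 0 of 206 were called beside 0% of all windows, with 9 at an unadjusted p under 0.05 beside 6.96%. DESeq2 gave 0 and 3, beside 2 and 9991 of all 239163 windows. The interaction of day and genotype gave 0 beside 0%, with 16 at an unadjusted p under 0.05 beside 6.32%. With DESeq2 it gave 0 and 8, beside 0 and 11424 of all 240778 windows. Of the 7 summed receptor genes, 0 were called in these 3 comparisons by either tool, beside 0% of all genes with edgeR. DESeq2 called 6 of all 15850 genes in WT mice, 47 of 15869 in TIR1 mice and 5 of 15873 for the interaction. At an unadjusted p under 0.05 with edgeR there were 0 receptor genes for the interaction, 0 in WT and 1 in TIR1 mice. Of all genes, 9.93%, 4.98% and 10.8% were under that p. The 1 gene was Tnfrsf9, with a log2 fold change of 0.14 ± 0.06 from day 3 to day 7 (unadjusted p = 0.0284, adjusted p = 0.413, edgeR), and all 3 day 7 values, 123 to 128 CPM, were above the 4 day 3 values, 109 to 118 CPM. In WT mice its values were 121 to 129 and 110 to 131 CPM, which overlapped. The genotype comparisons and the day comparisons share mice.

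Across the 14 libraries the receptors did not move as 1 group. Pearson's r of log2 summed CPM between members was highest for Tnfrsf9 with Tnfrsf14 (0.594) and for Tnfrsf1b with Tnfrsf8 (0.559), which are neighbours on chromosome 4, and lowest for Tnfrsf25 with Fas (-0.37). These are descriptions over libraries that share genotype, day and depth. Among 11600 other genes with at least 5 windows, the most alike were Zfp36 (0.887) and Abhd11 (0.879) for Tnfrsf9, A930018P22Rik (0.893) and Fam20b (0.861) for Tnfrsf1b, Fsbp (0.924) and Slc35d1 (0.921) for Tnfrsf8, and Nusap1 (0.884) and Cdkl2 (0.872) for Tnfrsf25. For Tnfrsf14 they were Slc35e3 (0.906) and Hp1bp3 (0.876), for Cd27 Cit (0.781) and Stk32c (0.773), and for Fas Atp9b (0.865) and Minpp1 (0.85). They are the highest of many values, and the 99th percentile of r over these genes was 0.568 for Cd27 to 0.782 for Tnfrsf8.

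Of 11 ligand genes, including the HVEM partners Btla and Cd160, 0 were called in either direction by edgeR in any of the 3 genotype comparisons. At an unadjusted p under 0.05 over both days, 2 were higher and 2 lower in TIR1, beside 6.55% and 6.66% of all genes, with a median log2 fold change of -0.00 beside 0.00 for all genes. Their range over both days ran from Tnf (-0.19 ± 0.09, adjusted p = 0.368), the ligand of TNFR2, to Tnfsf14 (0.19 ± 0.07, adjusted p = 0.267), which encodes the ligand of HVEM. Of 12 genes of adaptors and death signalling, 0 were called and 0 were higher and 2 lower at an unadjusted p under 0.05 over both days, from Traf2 (-0.15 ± 0.05, adjusted p = 0.19), an adaptor of most of these receptors, to Traf5 (0.07 ± 0.04, adjusted p = 0.477). Of 10 genes of the NF-kB pathway, 0 were called and 1 was higher and 3 lower at an unadjusted p under 0.05. Fold changes ran from Nfkb2 (-0.18 ± 0.08, adjusted p = 0.316) to Nfkb1 (0.09 ± 0.03, adjusted p = 0.271, edgeR), which encode NF-kB subunits. The other subunit genes were Rela at -0.15 ± 0.06 (adjusted p = 0.275, edgeR), Relb at -0.04 ± 0.04 and Rel at 0.03 ± 0.04.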

How the data were processed

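Bulk ATAC-seq libraries of Treg cells from 14 mice were analyzed, grouped by genotype and day from the labels, and each column was matched to its library by the mouse named in both. The authors aligned reads with Bowtie2 to mm10, called peaks with MACS2, kept reproducible peaks, merged them and counted reads at summits with featureCounts. The deposited values are raw counts per window and library, and no window has a mean count under 10.1. Read processing is contained in these counts and could not be varied. The submitters' processing notes also name DESeq2, without its role.

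Each window took the protein-coding gene with the closest start, up to 100 kb from its centre, by RefSeq positions of GRCm38. Strand was found for 21436 of 21896 genes. Counts were tested with edgeR 4.0.16 (quasi-likelihood test, TMM, Benjamini-Hochberg adjustment over all windows or genes, threshold 0.05) on windows or gene sums whose mean count reached 10 in the compared libraries, in R 4.3.3. Comparisons were TIR1 against WT per day and with the days combined (day as a covariate), the interaction, and day 7 against day 3 within each genotype. SEs follow from the fold change and its test statistic. DESeq2 1.42.0 and limma 3.58.1 (loess offsets) served for alternatives, and Python 3.11.15 for tables. The test was also run on simulated counts with changes larger than the gene-level differences of the receptors, so its power for those was not measured.

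Named windows were the strongest and the nearest to the start of each gene, and the 3 members with the smallest p in each genotype comparison. For windows named by p, separation of the genotypes in that comparison follows in part from the choice and is no further evidence. For the pathway lists the genes with the lowest and highest fold change over both days were named. The members and lists were chosen with earlier results of these data known. Whether replicates came from separate litters is not given in the labels. The p-values weigh differences against the spread between these mice, which edgeR moderates across all windows or genes. No molecular identifiers are described for these libraries, so counts may include PCR copies. The result of 1 list of cell type markers is not reported here.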

Additional observations from a re-analysis of the deposited data

Results flagged for a closer look

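In the day 3 groups of 4 mice, a mouse was taken as standing apart where its gap to the nearest other was a larger part of the range of its group than Dixon's critical value at 95% allows. Of 56 such groups of receptor sums and named windows, 4 met this, beside 2.8 that chance gives at 1 in 20. In the summed windows of Tnfrsf14, the second TIR1 mouse had 96.5 CPM, where the other TIR1 mice had 89.1, 89.3 and 90 CPM. In the strongest window of Tnfrsf14, 8.07 kb upstream, the fourth WT mouse had 22.4 CPM and the others 18.4, 18.5 and 18.6 CPM. In the start-site window of Cd27, the third TIR1 mouse had 9.47 CPM and the others 8.04, 8.21 and 8.27 CPM. In the Tnfrsf25 window 7.94 kb upstream, inside Plekhg5, the fourth TIR1 mouse had 4.99 CPM and the others 2.01, 2.09 and 2.16 CPM. The interaction test called no receptor window or gene.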

How the results depend on the processing

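The count of called receptor windows and genes was 0 in all 6 comparisons and in each of 202 combinations of a comparison and an alternative. The alternatives were DESeq2, other normalization, other count filters, no overlapping windows, a distance of 20 kb, the prefix of the mouse name as a term, the replicate number as a block and each mouse left out. For windows, the prefix on day 7 and between days in WT mice, where 1 side holds AC mice only, was added after seeing the data. The smallest adjusted p of any member window over all settings was 0.177 on day 7, 0.416 on day 3 and 0.203 with the days combined. Same-numbered mice of the genotypes did not deviate together (correlations -0.08 to 0.07 over 7 pairs), so the numbers were not taken as pairs. With the replicate number as a block, 0 receptor windows and 0 receptor genes were called, and Tnfrsf14 over both days was -0.14.

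Of 37 fold changes followed, 9 changed sign under some setting, with main values from -0.05 to 0.02. On day 7, leaving out 1 mouse gave -0.0172 to 0.0323 for Tnfrsf9, -0.0972 to 0.0539 for Tnfrsf8, -0.0355 to 0.0849 for Cd27 and -0.1752 to 0.0855 for Fas. On day 3 it gave -0.0458 to 0.0614 for Tnfrsf1b and -0.0820 to 0.0136 for Cd27. With the days combined it gave -0.0096 to 0.0184 for Tnfrsf25 and -0.0365 to 0.0197 for Cd27. Windows within 20 kb gave -0.0018 for Tnfrsf9 and 0.0238 for Tnfrsf8 on day 7 and 0.0007 for Tnfrsf1b with the days combined. Without overlapping windows Tnfrsf8 was 0.0011 on day 7, and with the prefix as a term Tnfrsf1b was -0.0043 on day 3 and Tnfrsf9 -0.0045 on day 7. The cause was not tested. Over all windows the number called moved from 0 to 52 on day 7, 0 to 30 on day 3, 2 to 155 over both days, 0 to 19 for the interaction, 0 to 57 between days in WT and 0 to 364 in TIR1 mice. Over all genes it moved from 0 to 14 on day 7, 0 to 188 on day 3, 0 to 196 over both days, 0 to 5 for the interaction, 0 to 6 between days in WT and 0 to 47 in TIR1 mice.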
